A study of Mus musculus with 32 samples.

Results

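The 10 genes described here mark Kupffer cells, the resident macrophages of the liver sinusoids, and macrophages in general: Cd68, Csf1r, Mpeg1, Marco, Cd14, Lyz2, Clec4f, Cd5l, C1qa and C1qb. They were chosen by name, as all probe sets whose single gene symbol in the platform annotation is one of these, which gave 15 probe sets for 10 of the 8251 genes named on the array. Of the 15 probe sets, 11 were bright enough to be tested, for 9 genes. The other 4 were dim: the only probe set of Marco, and second probe sets of Cd68, Mpeg1 and Lyz2. Where a gene had several probe sets, the one with the highest mean over all arrays leads, and the other is given beside it by its identifier.

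Kupffer cells sit inside the sinusoids, where they take up bacteria, old red cells and modified lipoproteins from portal blood. They need signals through the receptor for colony stimulating factor 1 to survive, and in mice they carry the lectin Clec4f, which most other macrophages lack. They recognise lipopolysaccharide through Cd14 and bind particles through scavenger receptors such as Marco. Macrophages are also a main source of C1q, the recognition molecule of the classical complement pathway.

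The arrays measured RNA of whole liver from male mice of the B6C3F1 hybrid strain, 4 mice in each of 8 groups. Long-term calorie restricted mice (LTCR) were fed 52.2 kcal a week from 5 months of age. Mice restricted for 8 weeks (CR8) received 77 kcal a week for 2 weeks from 20 months of age and 52.2 kcal a week afterwards. Over those 8 weeks the remaining treated mice ate control food that held the antidiabetic drug metformin (MET), the insulin-releasing drug glipizide (GLIP), metformin and glipizide together (GM), the PPAR gamma agonist rosiglitazone (ROS) or an extract of soy isoflavones (SOY). Controls (CON) stayed on 93 kcal a week of the control diet. All mice were housed singly from 5 months, went 48 hours without food before death and were killed at 22 months, so every value below, those of CON included, is from fasted old mice. The sources used here give no doses. No cells were sorted, so macrophage number, RNA per macrophage and RNA from other cell types cannot be told apart in any result.

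Intensities are in the units of the deposited table, to which all arrays had been scaled. The 32 columns had medians between 144.75 and 170.05 units and correlated with each other at 0.93 to 0.98. Hepatocyte RNA was abundant on every array: Alb, albumin, was at 31357 units or above on all 32. The array GLIP 3 stood apart in macrophage genes, as described next. The arrays CR8 1, CR8 2, ROS 4, SOY 3 and CON 3 were high in skeletal muscle transcripts, and are called the arrays with muscle RNA below. The mean of 11 muscle genes on these 5 arrays was 1.41 to 2.51 log2 units above its median, and on the other 27 arrays at most 0.58 above it.

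GLIP 3 was the highest of the 32 arrays in 7 of the 9 tested member genes. Its intensity relative to the median of the other 31 arrays was 4.64-fold in Clec4f, 4.53-fold in C1qa, 4.48-fold in Cd5l, 4.30-fold in Lyz2, 3.92-fold in Csf1r, 2.79-fold in Mpeg1 and 2.06-fold in Cd68. Cd14, at 1.48-fold, and the leading probe set of C1qb, at 1.08-fold, were not highest there. Among 7357 tested probe sets, GLIP 3 was highest in 5.23%.

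Genes of the same cells outside the 10 were high on the same array. GLIP 3 was highest in 12 of 14 other Kupffer cell and macrophage genes, with a median of 2.07-fold over the other arrays. Tyrobp, a signalling adaptor of myeloid receptors, had 854 units on GLIP 3 and 26.9 to 282 on the others. Ctss, the protease cathepsin S, had 3053 units on GLIP 3 and 195 to 1132 on the others. GLIP 3 was also highest in 5 of 6 general leukocyte genes (median 1.56-fold) and in 2 of 4 B and plasma cell genes. The same held in 3 of 11 genes of the sinusoidal endothelium and in 2 of 8 stellate cell and fibroblast genes (Dcn, 1.64-fold, and Pdgfra, 1.83-fold). Mrc1, 1 of these 3 endothelial genes, and Fcgr2b are also on the list of 14 other macrophage genes. These 2 lists are therefore not separate, here or in the comparisons below. GLIP 3 was highest in none of 3 monocyte and neutrophil genes (median 0.955-fold), none of 11 muscle genes and none of 8 hepatocyte genes (median 0.928-fold). GLIP changes are given with and without it below.

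**Figure D1:**
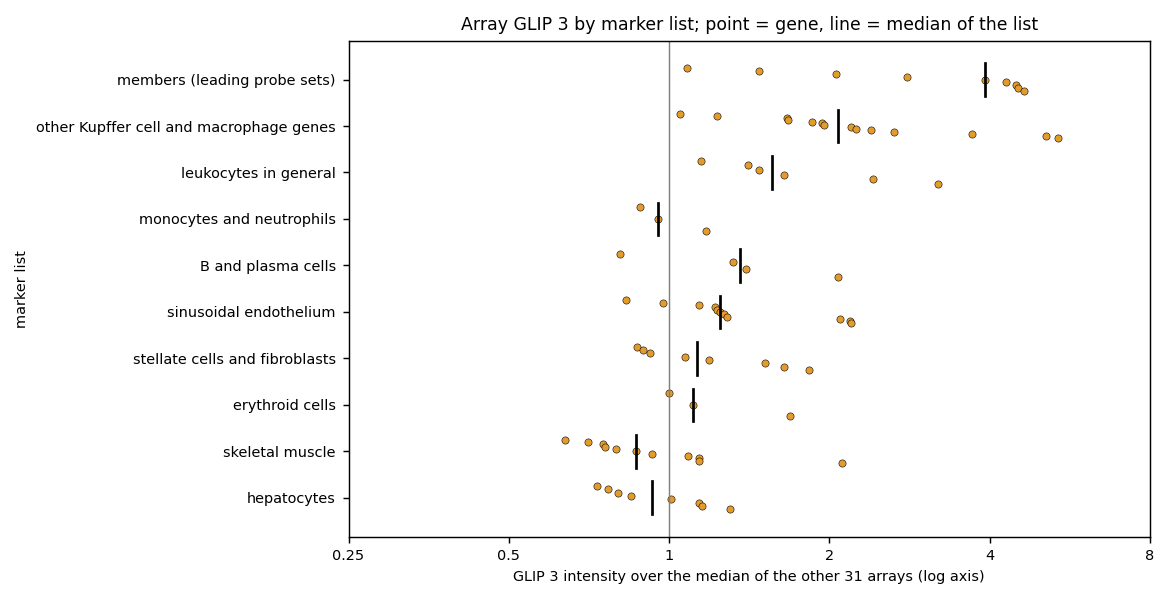
Intensity on array GLIP 3 divided by the median of the other 31 arrays (horizontal log axis), 1 point per tested gene, by marker list, with a line at each list's median. The members reach 4.64-fold and the other macrophage genes 5.39-fold, while hepatocyte genes lie between 0.732-fold and 1.30-fold.

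For 7 of the 10 genes a promoter sequence was at hand, from RefSeq on the build GRCm38.p6, running from 250 bases before to 50 bases after the annotated start. The windows are shown here for 5 of the members that varied together between mice (Cd68, Lyz2, Clec4f, Cd5l and C1qb, described below) and for Mpeg1, the member with the larger of the called changes between LTCR and CON. They lie at chr11:69666121-69666420 for Cd68, chr10:117282223-117282522 for Lyz2, chr6:83656067-83656366 for Clec4f and chr4:136886151-136886450 for C1qb, all on the minus strand, and at chr3:87357631-87357930 for Cd5l and chr19:12460520-12460819 for Mpeg1, on the plus strand. Each is written 5′ to 3′ along its gene, and capitals mark GAGGAA, the core of the site bound by the myeloid factor PU.1, on either strand (TTCCTC where it lies on the other strand).
Cd68: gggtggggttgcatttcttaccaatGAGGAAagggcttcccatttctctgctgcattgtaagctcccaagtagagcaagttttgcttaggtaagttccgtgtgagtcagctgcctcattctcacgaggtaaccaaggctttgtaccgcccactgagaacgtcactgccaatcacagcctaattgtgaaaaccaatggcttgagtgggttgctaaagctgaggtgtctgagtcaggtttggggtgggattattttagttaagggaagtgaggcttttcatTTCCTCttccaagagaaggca
Lyz2: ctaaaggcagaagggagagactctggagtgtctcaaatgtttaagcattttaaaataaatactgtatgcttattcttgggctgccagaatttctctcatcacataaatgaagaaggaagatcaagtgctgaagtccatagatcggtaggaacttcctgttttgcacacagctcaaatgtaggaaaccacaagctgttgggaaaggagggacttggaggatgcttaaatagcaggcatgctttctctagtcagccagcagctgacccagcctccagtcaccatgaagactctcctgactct
Clec4f: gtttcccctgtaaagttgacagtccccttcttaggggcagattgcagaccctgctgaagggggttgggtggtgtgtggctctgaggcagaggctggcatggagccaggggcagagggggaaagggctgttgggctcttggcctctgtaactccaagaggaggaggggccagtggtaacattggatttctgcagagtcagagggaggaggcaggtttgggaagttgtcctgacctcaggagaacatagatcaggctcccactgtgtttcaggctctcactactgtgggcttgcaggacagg
Cd5l: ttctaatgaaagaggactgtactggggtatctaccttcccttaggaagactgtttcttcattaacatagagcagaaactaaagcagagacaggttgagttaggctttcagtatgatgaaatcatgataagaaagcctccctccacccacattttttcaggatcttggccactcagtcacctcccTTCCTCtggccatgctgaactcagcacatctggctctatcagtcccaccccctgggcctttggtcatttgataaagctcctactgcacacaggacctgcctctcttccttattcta
C1qb: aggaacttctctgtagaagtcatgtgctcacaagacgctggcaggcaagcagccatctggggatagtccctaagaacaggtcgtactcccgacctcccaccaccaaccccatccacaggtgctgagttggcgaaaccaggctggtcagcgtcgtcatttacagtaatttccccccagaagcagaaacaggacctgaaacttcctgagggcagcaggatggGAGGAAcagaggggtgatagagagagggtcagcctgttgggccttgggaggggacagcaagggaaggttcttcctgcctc
Mpeg1: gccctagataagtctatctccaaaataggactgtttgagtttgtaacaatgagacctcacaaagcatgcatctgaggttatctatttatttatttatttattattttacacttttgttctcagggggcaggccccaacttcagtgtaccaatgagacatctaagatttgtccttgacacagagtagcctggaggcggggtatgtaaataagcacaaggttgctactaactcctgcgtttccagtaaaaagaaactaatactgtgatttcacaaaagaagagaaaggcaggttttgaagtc
Counted with the first base of the gene as 0, the motif starts at position -225 and, on the other strand, at 29 in Cd68, at -66 on the other strand in Cd5l and at -30 in C1qb. It also starts at -146 in Marco, which makes 4 of 7 member promoters, and 28.28% of 32851 promoters of this length hold it. TTGCNNAA, a pattern for C/EBP factors, lies in 1 of 7, starting at -43 in Cd68, and in 10.8% of all. The liver X receptor's direct repeat, AGGTCA given 2 times with 4 bases between, lies in 0 of 7 and 0.02% of all, and TATAAA in 0 of 7 and 13.62% of all. Both strands were searched and no 2 of the marked sites overlap. These are matches of letters in a window, not measured binding.

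Each member's level by group follows, in the order of the genes' roles. Differences between groups were tested on log2(intensity + 27) with limma, in 1 fit of all 8 groups, with p-values adjusted over all 7357 tested probe sets (Benjamini-Hochberg, threshold 0.05). Errors of intensities are SDs over 4 arrays and errors of log2 changes are standard errors. Within the moderated F test across the 8 groups, 5 of 11 member probe sets passed, against 27% of all tested. They were Mpeg1 (adjusted p = 0.00825), Cd14 (0.0250), Lyz2 (0.0291) and the second probe sets of C1qb (0.0258) and Csf1r (0.0373). Without LTCR 2 the count was 2, and without LTCR 1 or LTCR 4 it was 3.

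The members separated from each other in how much mice of 1 group differed. The SD within groups was 0.70 log2 units for Clec4f, 0.69 for Lyz2, 0.60 for Cd5l, 0.60 for C1qb (96020_at), 0.52 for C1qa and 0.50 for Csf1r. These 6 lay between the 92.2nd and 98.3rd percentile of all tested probe sets, whose median was 0.21. They include GLIP 3, which had 3.14 (Lyz2) to 4.98 (Cd5l) times the mean of the other GLIP arrays in these genes. Part of their spread therefore comes from that array, and the SDs without it are not given. Mpeg1 had 0.44 and the second Csf1r probe set 0.37. Cd14, at 0.26, Cd68, at 0.27, and the leading C1qb probe set, at 0.21, varied less from mouse to mouse. A given difference between groups was therefore tested against a wider spread in the first 6 than in these 3. With GLIP 3 left out of the fit, the standard error of LTCR against MET was 0.26 (Csf1r) to 0.41 (Lyz2) in these 6. It was 0.16 in Cd14.

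**Figure D2:**
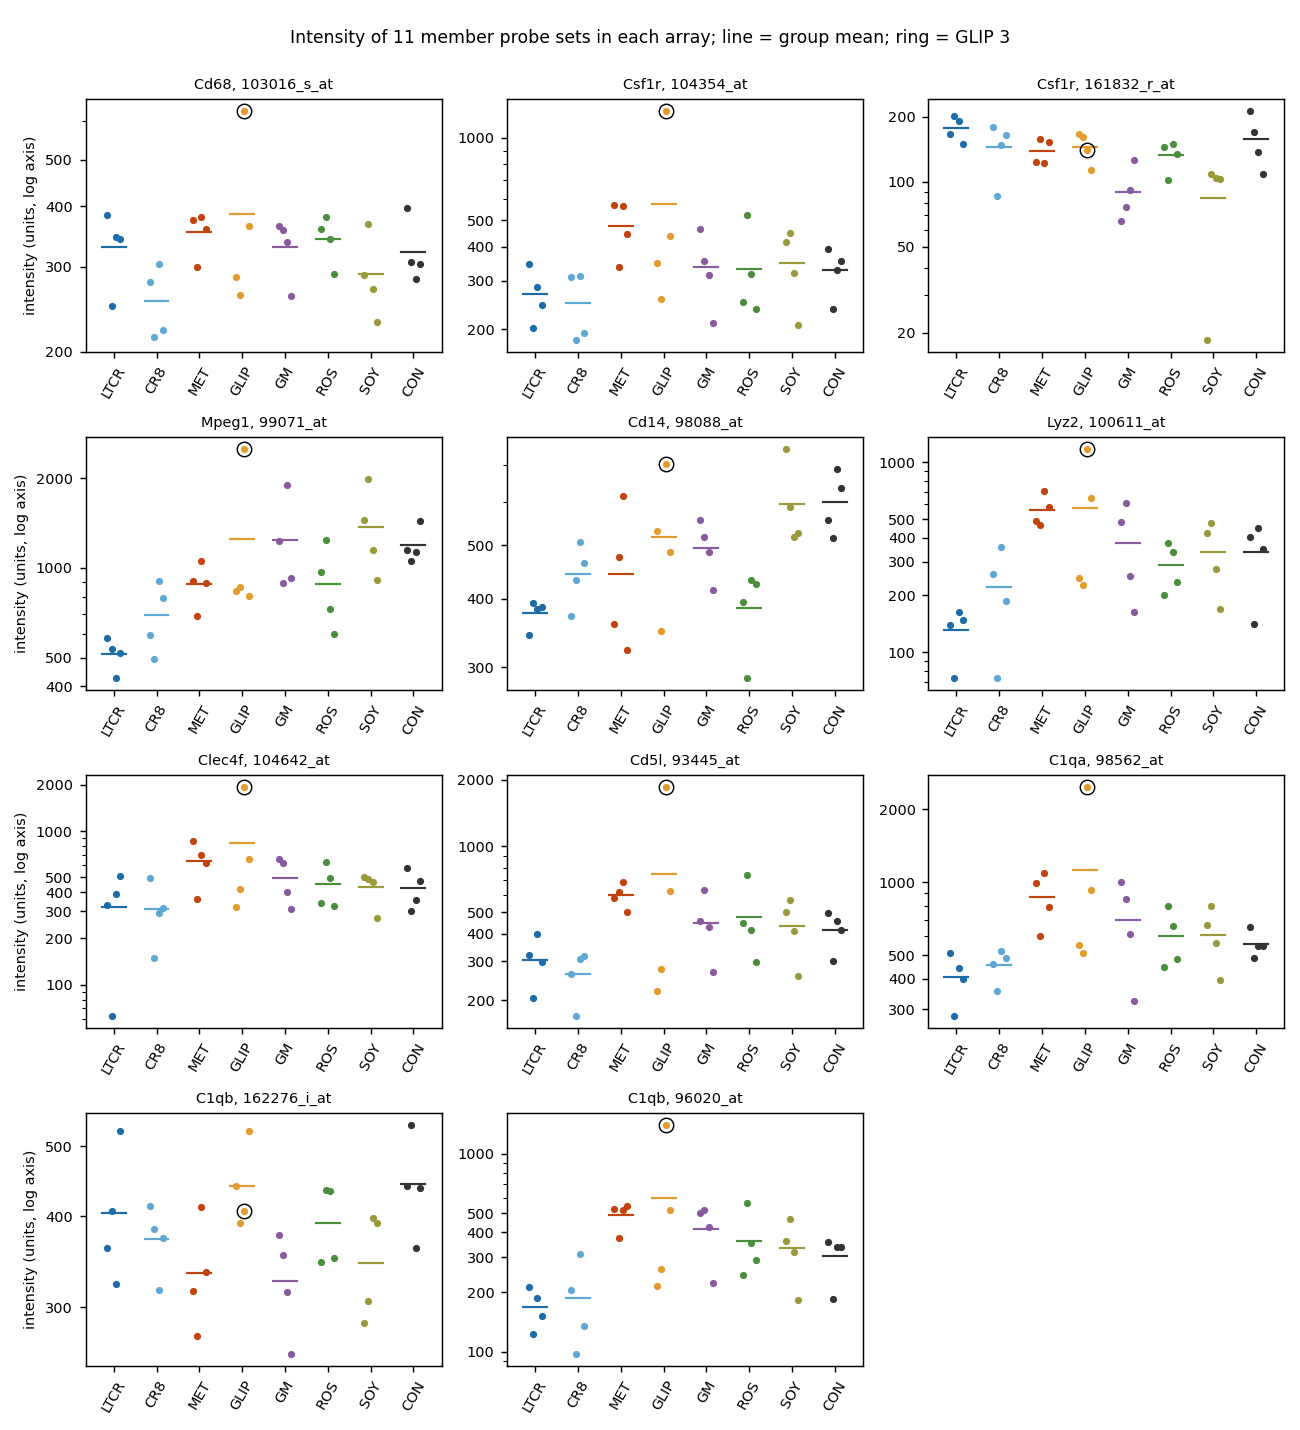
Intensity (vertical log axis) of the 11 tested member probe sets on each of the 32 arrays, by group, with a line at the group mean and a ring around GLIP 3. The ringed array is the highest of all in Cd68, Csf1r (104354_at), Mpeg1, Lyz2, Clec4f, Cd5l, C1qa and C1qb (96020_at).

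Csf1r encodes the receptor for colony stimulating factor 1. Its leading probe set (104354_at) averaged 270 ± 61.5 units in LTCR, 249 ± 71.7 in CR8, 478 ± 110 in MET, 576 ± 461 in GLIP, 336 ± 105 in GM, 332 ± 133 in ROS, 348 ± 109 in SOY and 328 ± 66.5 in CON (SD, n = 4 each). GLIP 3 had 1258 units and the other GLIP arrays 258 to 437.5. In the order of the group means on the log2 scale (GLIP, MET, SOY, GM, CON, ROS, LTCR, CR8) every pair of neighbours overlapped. The second probe set (161832_r_at) did not follow the first, with r = -0.27 over arrays. It had 65.6 to 126 units in GM and 18.5 to 109 in SOY, against 109 to 213.5 in CON. SOY 1 had 18.5 units there, and the other SOY arrays 103 to 109. The suffix of this probe set marks that some design rules were dropped for it.

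Cd68 encodes a glycoprotein of lysosomes and endosomes in macrophages. It averaged 330 ± 57.5 units in LTCR, 255 ± 43.4 in CR8, 354 ± 37.0 in MET, 386 ± 170 in GLIP, 330 ± 47.4 in GM, 343 ± 38.5 in ROS, 289 ± 58.1 in SOY and 322 ± 50.7 in CON. In the order of the group means all neighbours overlapped, and so did GLIP, the highest, and CR8, the lowest. LTCR 2, at 249 units, and CR8 2, at 214, were the lowest of their groups. Its probe set carries the suffix of a sequence shared with other transcripts, and the dim second one (162173_i_at) stayed at 1.5 to 34.2 units.

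Lyz2 encodes lysozyme M, which breaks bacterial cell walls. Its arrays had 139, 73.2, 163 and 148 units in LTCR, 259, 73.0, 359 and 186 in CR8, 489, 467, 702 and 583 in MET, and 405, 142, 450 and 349 in CON. Of these 4 groups MET lay wholly above the others, and LTCR lay below CON except for CON 2, which fell among the LTCR arrays. GLIP ranged from 227 to 1178 units, GM from 162 to 613, ROS from 200.1 to 376 and SOY from 169 to 477. The mRNA of Lyz1 is nearly identical to that of Lyz2, so part of this signal may come from it. The dim second probe set (162309_at) stayed at 2.5 to 31 units.

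Mpeg1 encodes perforin-2, a pore-forming protein of phagocytes. Its arrays had 580.0, 536, 426 and 518 units in LTCR, 595, 496, 902 and 791 in CR8, and 1153, 1053, 1128 and 1439 in CON. Every LTCR array and every CR8 array lay below every CON array. MET averaged 885 ± 149 units, GLIP 1254 ± 841, GM 1237 ± 472, ROS 885 ± 283 and SOY 1374 ± 470. LTCR, the lowest group, and SOY, the highest, did not overlap, and all neighbours in the order did. After GLIP 3, at 2516 units, the highest arrays were SOY 2, at 1996, and GM 3, at 1907. The dim second probe set (162075_r_at) stayed at 0.2 to 25.7 units.

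Cd14 is the co-receptor that hands lipopolysaccharide to its signalling receptor. Its arrays had 344, 393, 384 and 386 units in LTCR, 372, 432, 506 and 464 in CR8, 394, 287, 433 and 425 in ROS, and 556, 516, 690 and 636 in CON. All 12 arrays of LTCR, CR8 and ROS lay below the lowest CON array. MET averaged 444 ± 132 units, GLIP 517 ± 146, GM 493 ± 59.8 and SOY 596 ± 107. The LTCR arrays were the closest together of any group (SD 22.1). The highest array for Cd14 was SOY 1, at 749.5 units, not GLIP 3, at 704.

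Marco, a scavenger receptor that some resident macrophages carry, was near the bottom of the scale. Its probe set lay between 6.2 and 21.8 units, below the added value of 27, on all 32 arrays, GLIP 3 (14.8 units) included. Group means ran from 10.7 ± 3.93 units in GLIP to 16.1 ± 3.80 in ROS, and no neighbouring groups were apart. No fold change is given for it.

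Clec4f is the C-type lectin of mouse Kupffer cells. It averaged 322 ± 188 units in LTCR, 313 ± 141 in CR8, 636 ± 208 in MET, 835 ± 753 in GLIP, 497 ± 167 in GM, 449 ± 145 in ROS, 432 ± 109 in SOY and 424 ± 121 in CON. LTCR 2 had 62.3 units, the lowest of the 32 arrays, and the other LTCR arrays 329 to 508. CR8 2 was next lowest, at 149.8 units. The LTCR change against CON was -0.60 ± 0.46 with LTCR 2 and -0.03 ± 0.42 without it, so the low Clec4f mean of LTCR rested on that array.

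Cd5l encodes a secreted scavenger protein of macrophages that supports their survival. Its arrays had 585, 618, 686 and 503 units in MET, and 495.5, 299.6, 458 and 418 in CON. All MET arrays lay above all CON arrays. LTCR averaged 306 ± 79.6 units, CR8 264 ± 67.3, GLIP 745 ± 765, GM 447 ± 148, ROS 476 ± 189 and SOY 436 ± 136. By the mean on the log2 scale MET was the highest group and CR8 the lowest, and they did not overlap.

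C1qa and C1qb encode chains of C1q and are neighbours on chromosome 4. C1qa had 512, 281, 443 and 400.4 units in LTCR, 991, 603, 1096 and 792 in MET, and 654, 485.5, 547 and 548 in CON. LTCR and MET did not overlap with each other, and each overlapped with CON. It averaged 457 ± 70.9 units in CR8, 1120 ± 927 in GLIP, 699 ± 299 in GM, 599 ± 164 in ROS and 606 ± 172 in SOY. GLIP 3 had 2481 units and the other GLIP arrays 512 to 932.

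The 2 probe sets of C1qb disagreed, with r = -0.04 over arrays. The second one (96020_at) had 211, 123, 187 and 151 units in LTCR, 204, 96.9, 313 and 135 in CR8, 529, 374, 519 and 545 in MET, and 357, 185, 339 and 336 in CON. It correlated with C1qa over arrays at r = 0.91. MET lay wholly above CON, and LTCR lay below all CON arrays but CON 2. The leading one (162276_i_at), whose suffix marks an incomplete probe set, averaged 404 ± 87.4 units in LTCR, 335 ± 58.0 in MET, 326 ± 51.8 in GM and 443.5 ± 71.0 in CON. There GLIP 3 had 407 units, inside the range of the other GLIP arrays (392 to 524). A statement on C1qb therefore holds for 1 of its probe sets only.

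**Figure D3:**
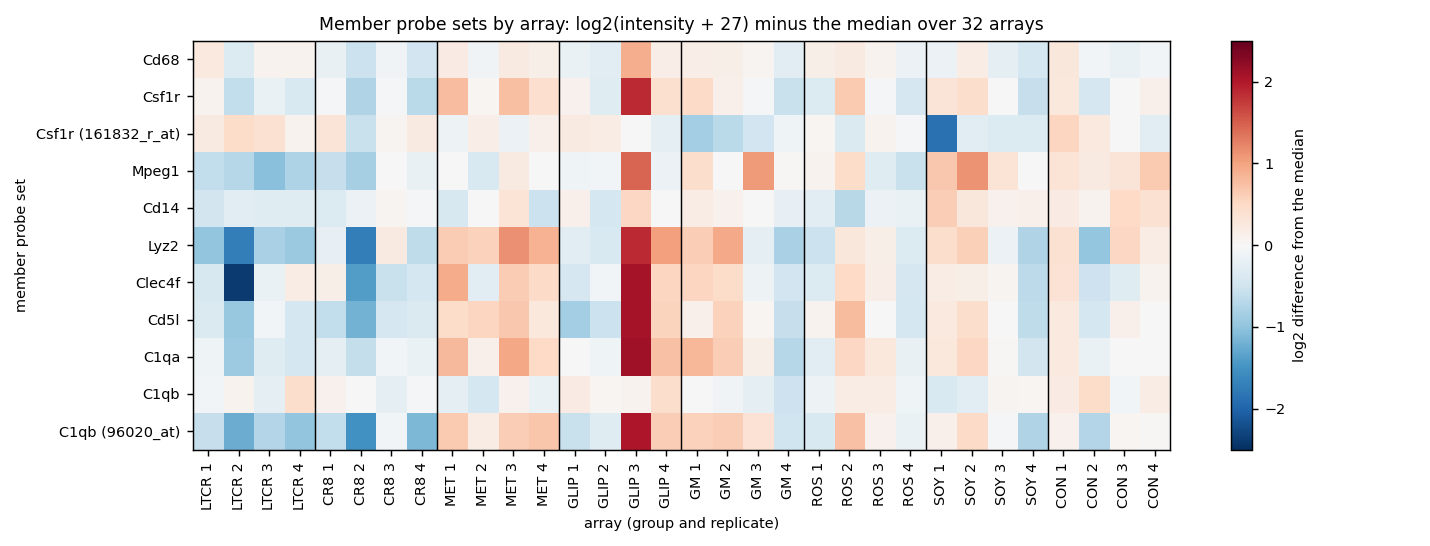
log2(intensity + 27) minus its median over 32 arrays (colour), for the 11 tested member probe sets (rows) on each array (columns, by group). GLIP 3 is high in 8 rows, LTCR 2 and CR8 2 are low in Lyz2, Clec4f and C1qb (96020_at), and the leading C1qb and second Csf1r rows follow neither pattern.

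LTCR was compared with CON for long-term restriction. Mpeg1 and Cd14 were lower, and no member was higher. Mpeg1 fell to 515 ± 64.8 units in LTCR, against 1193 ± 169 in CON, a log2 change of -1.17 ± 0.29 (adjusted p = 0.00426, limma). Cd14 fell to 377 ± 22.1 units in LTCR, against 599.5 ± 78.2 in CON, a log2 change of -0.63 ± 0.18 (adjusted p = 0.0111). In both, 4 of 4 LTCR arrays lay below all CON arrays. That is 2 of 11 member probe sets called, both lower, where 19.3% of all tested probe sets were called and 11.8% were called lower. It is also 2 of 11 without overlap, both lower, where 21.2% of all tested had none and 12% lay wholly below. The members' share was near that of the array as a whole. An unadjusted p at or below 0.05 was found in 3 of 11, against 32% of all tested.

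Most other members were negative in LTCR without passing the test. Lyz2 had 131 ± 39.6 units in LTCR, against 336 ± 136 in CON, a change of -1.14 ± 0.45 (adjusted p = 0.0736). Without CON 2, its low control array, the change was -1.47 and the adjusted p 0.0258. Without GLIP 3 in the common fit, the adjusted p of Lyz2 was 0.0492. Across the 23 alternative runs the Lyz2 change ran from -1.47 to -0.89, and its limma adjusted p from 0.0258 to 0.200. C1qb (96020_at) had a change of -0.75 ± 0.39 (adjusted p = 0.190). Of the 9 leading probe sets 8 were negative, with a median change of -0.45, while the median of all tested probe sets was 0.00444. Cd68 was the exception, at 0.03 ± 0.19 with a 95% interval from -0.35 to 0.41. Most of the 9 varied together between mice, as described below. Counts of signs, here and in later comparisons, are therefore not counts of separate observations.

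The Cd14 call was lost without the 5 arrays with muscle RNA, of which CON 3 is 1. Without them its change was -0.56 ± 0.20 (adjusted p = 0.0557, and 0.0396 when GLIP 3 was left out too) and that of Mpeg1 was -1.19 ± 0.31 (adjusted p = 0.0119). The muscle genes themselves averaged between -0.16 and 0.58 log2 units from their median on the LTCR arrays and between -0.19 and 2.21 on the CON arrays, the top value being CON 3. Their part in the difference was otherwise not tested.

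Lists of genes of these cells and pathways are read against the 19.3% of all tested probe sets called in LTCR. The pathway lists here and in the next paragraph hold members too, so they are not separate from the values above. C1qa and C1qb are in classical complement, Csf1r in the CSF1 receptor list and Cd14 in lipopolysaccharide recognition. Lyz2 and Cd68 are in the phagocyte lysosome list, Cd68 among the scavenger receptors and Cd5l among the liver X receptor and Kupffer cell regulators. Of 14 other Kupffer cell and macrophage genes, 0 passed, 10 were negative, the median change was -0.13 and 1 had an unadjusted p at or below 0.05. Of 7 classical complement genes all were negative and 1 passed: C4bp, a regulator made by hepatocytes, at 3427 units in LTCR against 6742 in CON, a change of -0.97 ± 0.16. Of 12 genes around the CSF1 receptor, Ptpn6, a phosphatase of blood cells, was lower (-0.75 ± 0.23) and Cebpa, a factor that hepatocytes also express, was higher (0.39 ± 0.10). Of 8 genes of lipopolysaccharide recognition only Cd14 passed.

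In the phagocyte lysosome list, 2 of 15 genes were higher and 2 lower in LTCR. Ctsz, cathepsin Z, changed by -0.61 ± 0.11 and Hexa, a hexosaminidase subunit, by -0.51 ± 0.14. Ctsd, cathepsin D, changed by 0.29 ± 0.09 and Ctsh by 0.17 ± 0.06. Among 9 liver X receptor and Kupffer cell regulators, Irf7, a factor of the interferon response, changed by -1.11 ± 0.20, the cholesterol exporter Abca1 by -0.64 ± 0.11 and Rxra by 0.39 ± 0.10. Of 6 scavenger receptors, Cd36 was lower (-0.60 ± 0.17) and Scarb1, which hepatocytes express strongly, higher (0.52 ± 0.12). Hepatocytes also express many of the genes on these lists, and whole liver RNA does not separate the cell types.

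Markers of other cells stood as follows in LTCR against CON. Of 6 general leukocyte genes 0 passed (median -0.16), and of 3 monocyte and neutrophil genes 0 passed (median -0.03). All 11 tested genes of the sinusoidal endothelium were positive and 0 passed (median 0.24). Krt8 and Krt18, on the bile duct list but also expressed by hepatocytes, were lower, with log2 changes of -1.17 ± 0.16 and -1.02 ± 0.17. Of 8 hepatocyte genes 4 were higher and 2 lower. Those with the smallest p were Tat, tyrosine aminotransferase (1.04 ± 0.15), Ttr, transthyretin (-0.86 ± 0.16), Apoa1, the main protein of high-density lipoprotein (0.40 ± 0.10), and Cps1, of the urea cycle (0.33 ± 0.09). Of 3 erythroid genes Alas2, the first enzyme of haem synthesis in red cell precursors, was lower (-0.82 ± 0.22), and of 8 stellate cell and fibroblast genes Col1a2, a collagen chain, was higher (0.37 ± 0.11). Whether cell makeup has a part in the Mpeg1 and Cd14 differences was not tested.

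CR8 was compared with CON for short restriction. All 9 leading probe sets were negative (median -0.41, against -0.0159 for all tested probe sets), and 0 of 11 passed the test, where 0.544% of all tested probe sets did. Mpeg1 had 696 ± 184 units in CR8, against 1193 ± 169 in CON, a change of -0.78 ± 0.29 (adjusted p = 0.260). Cd14 had 443 ± 56.5 units in CR8, against 599.5 ± 78.2 in CON, a change of -0.41 ± 0.18 (adjusted p = 0.332). These were the 2 of 11 probe sets without overlap between CR8 and CON, where 7.2% of all tested had none and 3.64% lay wholly below. They were also the 2 with an unadjusted p at or below 0.05, where 11.6% of all tested had one.

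CR8 1 and CR8 2 are among the arrays with muscle RNA. Without these 2, with all CON arrays kept, the change was -0.48 ± 0.35 in Mpeg1, -0.28 ± 0.22 in Cd14 and -0.24 ± 0.52 in Lyz2, which had been -0.62 ± 0.45. Without all 5 such arrays, CON 3 included, it was -0.50 ± 0.38 in Mpeg1, -0.22 ± 0.23 in Cd14 and -0.07 ± 0.57 in Lyz2. Of the listed genes, Irf7 (-1.01 ± 0.20) and Krt8 (-0.70 ± 0.16) were lower in CR8 than in CON. LTCR against CR8 gave 0 calls among the members, where 12% of all tested probe sets were called, and 0 had an unadjusted p at or below 0.05, where 26.5% of all tested did. No member lay apart there, where 16.1% of all did. The largest difference there was Lyz2, with 131 ± 39.6 units in LTCR and 219 ± 121 in CR8 (-0.52 ± 0.45). Of the listed genes, LTCR was lower than CR8 in C4bp (-0.77 ± 0.16), Abca1 (-0.53 ± 0.11) and Ttr (-0.65 ± 0.16), while Ctsd (0.36 ± 0.09), Rxra (0.43 ± 0.10), Apoa1 (0.33 ± 0.10) and Tat (0.53 ± 0.15) were higher.

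MET was compared with CON for metformin. Lyz2, Cd5l and C1qb (96020_at) lay wholly above CON, 3 of 11 member probe sets, where 10% of all tested did not overlap in either direction and 3.94% lay wholly above. None of the 11 passed limma's test, where 4.17% of all tested probe sets did. Lyz2 had 560 ± 107 units in MET, against 336 ± 136 in CON, a change of 0.78 ± 0.45 (adjusted p = 0.364). C1qb (96020_at) had 492 ± 79.0 units in MET, against 304 ± 79.9 in CON, a change of 0.67 ± 0.39 (adjusted p = 0.370), and Cd5l a change of 0.50 ± 0.39. Without CON 2, the lowest CON array in all 3, the changes were 0.45 in Lyz2, 0.47 in C1qb (96020_at) and 0.36 in Cd5l.

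Cd14, Mpeg1 and the leading C1qb probe set were negative in MET. Cd14 had 444 ± 132 units in MET, against 599.5 ± 78.2 in CON (-0.45 ± 0.18), and the leading C1qb probe set had 335 ± 58.0 units in MET, against 443.5 ± 71.0 in CON (-0.38 ± 0.15). These 2 of 11 had an unadjusted p at or below 0.05, where 18.1% of all tested did, and adjusted p-values of 0.157 and 0.155. Of the 9 leading probe sets 6 were positive, with a median of 0.50 against -0.0329 for all tested. Of 14 other macrophage genes 13 were positive (median 0.29) and 0 passed, with 0 at an unadjusted p of 0.05 or below. Of the sinusoidal endothelium list 11 of 11 were positive (median 0.28) and 0 passed, and of 6 general leukocyte genes 4 were positive (median 0.04). Lipa, the lysosomal acid lipase, was higher in MET (0.56 ± 0.16) and Lamp2, a lysosomal membrane protein, lower (-0.45 ± 0.12). Cebpa (0.47 ± 0.10), Rxra (0.41 ± 0.10) and Apoa1 (0.37 ± 0.10) were also higher, and Abca1 (-0.60 ± 0.11), Krt18 (-0.93 ± 0.17) and the fibrinogen chains Fga (-0.45 ± 0.12) and Fgb (-0.51 ± 0.15) lower.

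GLIP was compared with CON for glipizide, and 0 of 11 probe sets passed or lay apart, where 0.136% of all tested were called and 5.44% did not overlap. An unadjusted p at or below 0.05 was found in 0 of 11, against 9.37% of all tested. C1qa had 1120 ± 927 units in GLIP, against 559 ± 70.1 in CON, a change of 0.68 ± 0.34 (adjusted p = 0.547). Without GLIP 3 the change of C1qa was 0.20 ± 0.29. Likewise Clec4f changed by 0.62 ± 0.46 with GLIP 3 and 0.11 ± 0.43 without it, Csf1r by 0.53 and 0.07, Lyz2 by 0.53 and 0.10, and Cd5l by 0.33 and -0.26. Mpeg1 changed by -0.10 ± 0.29 with GLIP 3 and by -0.49 ± 0.25 without it. With or without that array, no member passed.

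GM, ROS and SOY were compared with CON for the combination, rosiglitazone and soy isoflavones. No member passed in GM (1.55% of all tested did), in ROS (0.136%) or in SOY (0%). In GM, 2 of 11 had an unadjusted p at or below 0.05, where 17.7% of all tested did: the leading C1qb probe set (-0.41 ± 0.15) and the second Csf1r probe set (-0.65 ± 0.26). In SOY the same 2 probe sets did, at -0.34 ± 0.15 and -0.83 ± 0.26, where 8.17% of all tested did. Without SOY 1 the change of this Csf1r probe set in SOY was -0.44 ± 0.21. No member of GM or SOY lay apart from CON, where 10.5% and 5.36% of all tested did.

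In ROS, Cd14 lay wholly below CON, 1 of 11 where 4.85% of all tested did not overlap and 2.6% lay wholly below. It was also the 1 of 11 with an unadjusted p at or below 0.05, where 8.41% of all tested had one. It had 385 ± 67.5 units in ROS, against 599.5 ± 78.2 in CON, a change of -0.61 ± 0.18 (unadjusted p = 0.00157, adjusted p = 0.202). Mpeg1 changed by -0.46 ± 0.29 and the other 7 leading probe sets by -0.16 to 0.13. Without the 5 muscle arrays, ROS 4 and CON 3 among them, the Cd14 change was -0.60 ± 0.21. Of the listed genes Krt8 was lower in ROS than in CON (-0.77 ± 0.16).

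**Figure D4:**
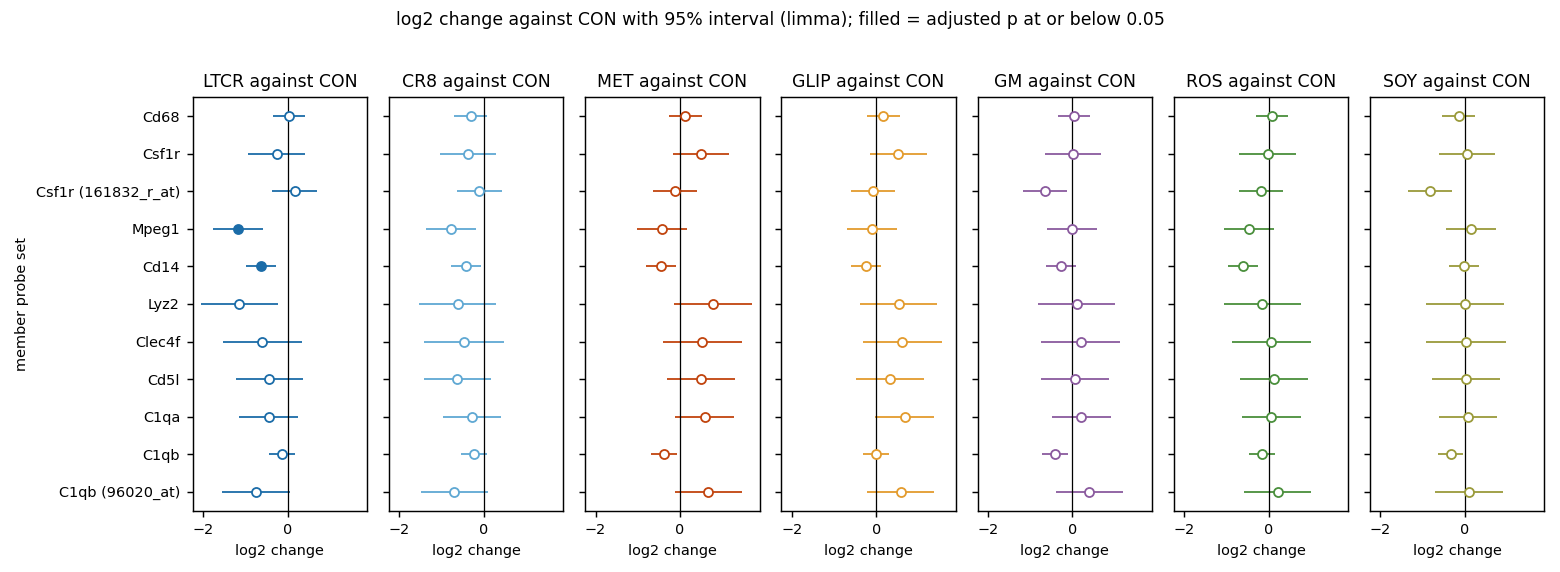
log2 change (horizontal axis) of the 11 tested member probe sets (rows) in each of 7 groups against the same CON arrays, with 95% intervals from limma. Only Mpeg1 and Cd14 in LTCR, drawn filled, have an adjusted p at or below 0.05.

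The 7 comparisons above share the 4 CON arrays, so they are not independent of each other. GM against MET and GM against GLIP do not use CON. Against MET, 0 members passed (2.62% of all tested did), 0 had an unadjusted p at or below 0.05 (17.8% did), 0 lay apart (8.56% did) and 7 of 9 leading probe sets were negative, with Lyz2 at 378 ± 207 units in GM and 560 ± 107 in MET (-0.68 ± 0.45). Of the listed genes, Abca1 (0.53 ± 0.11), Ttr (0.64 ± 0.16) and Fgb (0.57 ± 0.15) were higher in GM than in MET. Against GLIP, 0 passed (0% of all tested did). The leading C1qb probe set lay wholly below there, at 326 ± 51.8 units in GM and 441 ± 59.1 in GLIP (-0.41 ± 0.15, adjusted p = 0.452), 1 of 11 where 5.04% of all tested did not overlap and 3.63% lay wholly below. An unadjusted p at or below 0.05 was found in 2 of 11, against 9.17% of all tested. Without GLIP 3 the leading C1qb change was -0.44 ± 0.16, and that of the second Csf1r probe set, the other of these 2, was -0.59 ± 0.28, against -0.58 ± 0.26 with it. The change of C1qa against GLIP was -0.47 ± 0.34 with GLIP 3 and 0.01 ± 0.29 without it.

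After the data had been seen, the other 18 pairs of groups were fitted as well. A member was called in 5 of them, and in 13, LTCR against ROS among them, none was. All calls in these pairs are descriptions, because the pairs were added after the data had been seen. LTCR and MET are the lowest and highest groups in Lyz2 and C1qb (96020_at) on the log2 scale. Their difference there restates that order and is given as a description, not as a test. Lyz2 had 131 ± 39.6 units in LTCR and 560 ± 107 in MET (SD, n = 4 each), a log2 change of -1.92 ± 0.45. C1qb (96020_at) had 168 ± 38.9 units in LTCR and 492 ± 79.0 in MET (-1.42 ± 0.39). C1qa had 409 ± 97.1 units in LTCR and 870.5 ± 218 in MET (-1.04 ± 0.34). In 5 of 11 member probe sets, these 3 among them, every LTCR array lay below every MET array. The share of all tested probe sets that lay apart in this pair is not given. The 3 of 11 were called, where 10.4% of all tested were. With GLIP 3 left out of the common fit 5 of 11 were called, where 10.6% of all tested were. For Lyz2 and C1qb (96020_at) the groups are the extremes of the same values, so their calls are not evidence of a difference. In C1qa LTCR is the lowest group and MET is next below GLIP, the highest, on the log2 scale. The C1qa call is therefore given as a description as well. Leaving out GLIP 3 was chosen after the data had been seen, so the count of 5 is a description too.

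CR8 against MET gave 1 call, C1qb (96020_at), with 187 ± 94.8 units in CR8 and 492 ± 79.0 in MET (-1.37 ± 0.39), where 3.72% of all tested were called. Without GLIP 3 in the fit Cd5l was called as well (-1.13 ± 0.29). CR8 is the lowest and MET the highest group in Cd5l on the log2 scale, so that difference restates their order. Without CR8 1 and CR8 2 no member was called, and the C1qb (96020_at) change was -1.13 ± 0.48. The share of all tested probe sets called in that fit is not given.

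LTCR was lower than GM in Mpeg1 (-1.16 ± 0.29), Lyz2 (-1.24 ± 0.45) and C1qb (96020_at) (-1.15 ± 0.39), and lower than SOY in Mpeg1 (-1.32 ± 0.29) and Cd14 (-0.61 ± 0.18). The second Csf1r probe set ran the other way, higher in LTCR than in GM (0.82 ± 0.26) and in SOY (1.00 ± 0.26). That is 4 of 11 called against GM, where 22.5% of all tested were, and 3 of 11 against SOY, where 24.5% were. On the log2 scale LTCR is the lowest and SOY the highest group in Mpeg1. In the second Csf1r probe set LTCR is the highest and SOY the lowest. Those differences against SOY restate that order and are descriptions, not tests. Without SOY 1 the second Csf1r change against SOY was 0.62 ± 0.21. That of Cd14 was -0.50 ± 0.18 and no longer called (limma adjusted p = 0.0564). In that fit 2 of 11 were called, and the share of all tested probe sets called is not given. LTCR against GLIP gave 4 of 11, all lower, where 19.1% of all tested were called, and 0 of 11 without GLIP 3, where 13.4% were.

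A fitted interaction of glipizide and metformin, also added after the data had been seen, gave 0 calls among the members, where 0.0408% of all tested passed. Csf1r (-1.02 ± 0.46) and C1qa (-1.06 ± 0.48) had an unadjusted limma p of 0.0351 and 0.0362. Without GLIP 3 the interaction was -0.57 ± 0.38 in Csf1r and -0.58 ± 0.39 in C1qa, and 0 members were called.

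Across individual mice the members fell into a tight set and a loose rest. Correlations were taken over 32 arrays on the log2 scale with group means removed, for 55 pairs of member probe sets, with permutation within groups and adjustment over the 55 pairs. Of these, 29 passed the threshold, and 24 without GLIP 3. The 7 probe sets of Cd68, Csf1r (104354_at), Lyz2, Clec4f, Cd5l, C1qa and C1qb (96020_at) correlated with each other in all 21 pairs, at r = 0.77 to 0.93 and Spearman's rho = 0.69 to 0.92. Without GLIP 3 these 21 pairs had r = 0.67 to 0.91, and without the 2 arrays farthest from the median of the first gene 0.67 to 0.90. This set was picked after its values were seen, so no test of it as a set is given.

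The closest pair was Csf1r and C1qb (96020_at), with r = 0.93 and rho = 0.92 (permutation p = 1e-05 for each, the smallest that 100000 resamples can give; adjusted p = 4.23e-05 for r). Without GLIP 2 and GLIP 3 the r of this pair was 0.89. Mpeg1 correlated less with the other probe sets (median r = 0.59, and 0.39 without GLIP 3), and 7 of its 10 pairs passed with GLIP 3 and 3 without it. Cd14 correlated less still (median r = 0.32, and 0.08 without GLIP 3). Its only pair past the threshold was with Lyz2 (r = 0.46, rho = 0.43, adjusted permutation p = 0.0398), and none was without GLIP 3. The leading C1qb and the second Csf1r probe sets had 0 of 10 pairs past the threshold each.

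**Figure D5:**
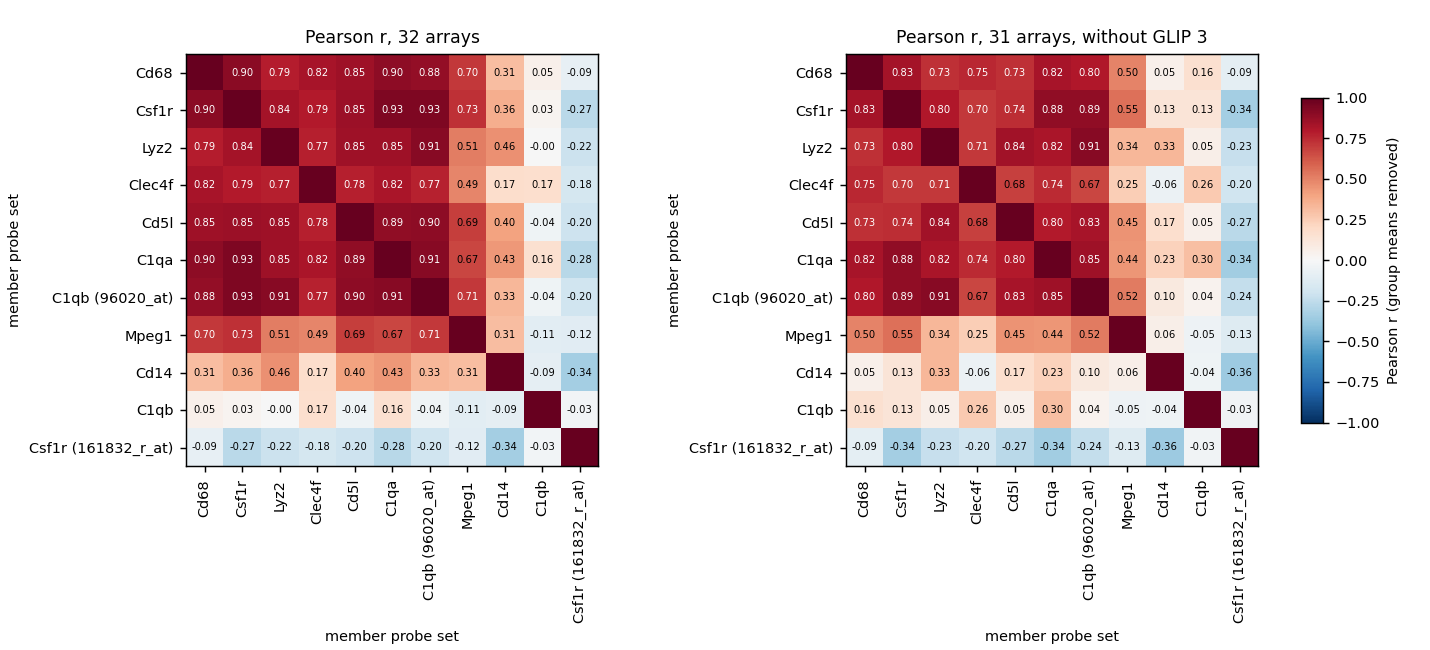
Pearson r between member probe sets over arrays with group means removed (colour and printed value), for 32 arrays on the left and for 31 arrays without GLIP 3 on the right; plain symbols are leading probe sets. The first 7 rows hold values from 0.77 to 0.93 on the left and from 0.67 to 0.91 on the right, while the median r of Mpeg1 with the other probe sets is 0.59 on the left and 0.39 on the right.

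Genes outside the 10 were ranked by the same correlation, over 5536 genes. Ctss was the gene most like Cd68 (r = 0.88), Csf1r (0.92), Lyz2 (0.89), Clec4f (0.88), Cd5l (0.89), C1qa (0.93) and C1qb (96020_at) (0.91). Next came C1qc, the third chain of C1q (0.89 with C1qa and 0.87 with Cd68), Tmsb4x, an actin-binding peptide (0.88 with Lyz2 and 0.85 with C1qb (96020_at)), Lgmn, the protease legumain (0.87 with Cd5l), Apbb1ip, an adaptor of integrin activation (0.87 with Lyz2), and Plac8 (0.83 with C1qb (96020_at)). Without GLIP 3, Ctss kept r between 0.78 and 0.89 with these 7 probe sets.

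Mpeg1 and Cd14 had other neighbours. For Mpeg1 they were Birc2, an inhibitor of apoptosis (r = 0.78), Psmb8, an immunoproteasome subunit (0.76), and Antxr2, a receptor that binds anthrax toxin (0.75). For Cd14 they were Tom1 (0.66) and Sod3, the extracellular superoxide dismutase (0.65). The leading C1qb probe set was most like Dpf3 (0.70), Krt31 (0.69) and Elk1 (0.68), and the second Csf1r probe set like Grid1 (0.76), Sprr2b (0.75) and Ninj1 (0.64). By the mean r over the 9 leading probe sets, the first 10 genes were Ctss, C1qc, Cfp, Apbb1ip, Plac8, Tmsb4x, Vasp, Cd74, Lgmn and Tgfbi, and 3 of these 10 are on the list of other Kupffer cell and macrophage genes.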

How the data were processed

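Liver RNA was measured on Affymetrix MG-U74Av2 arrays, and the groups were taken from the sample titles. The deposited table holds a linear intensity for every probe set on every array, already scaled by the authors, as its values show: column means trimmed by 2% at each end lie between 500.4 and 500.5. The sources used here name no software, background correction or detection call. The number of arrays limits the precision. Of 12488 probe sets, 66 controls were left out. Intensities were taken as log2(intensity + 27), the 20th percentile being 27, which understates the change of dim genes. Probe sets with a mean above the 40th percentile (94.2) were tested, 7357 in all. The test was limma 3.58.1 in R 4.3.3 (lmFit, eBayes with an intensity trend), with 8 groups in 1 fit, 24 residual and 4.59 prior degrees of freedom, in 10 comparisons; it was tested on simulated data. The arrays of a group are of separate mice, per the labels.

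Promoters came from a RefSeq table. Alternatives were other scalings, added values, filters and moderation, array weights, a replicate block, 1 probe set per gene, a fit to 2 groups and each array left out. Every member is named, with the genes of the marker and pathway lists past the threshold (at most 4 per list and comparison) and the 3 genes most like each member, of which 1 for Cd14 is not reported here. Genes, lists and tests were chosen with earlier results of these data known, and the arrays left out for GLIP 3, muscle RNA and SOY 1 were added after seeing the data.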

Additional observations from a re-analysis of the deposited data

Results flagged for a closer look

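Single arrays were sought in each group of 4 by the gap between the extreme array and its nearest neighbour, as a share of the group's whole range on the log2 scale. By the 95% critical value of Dixon's test, 5 of 88 sets of 4 arrays passed, where chance flags about 5%. Mpeg1 on GLIP 3 had 2515.9 units, far above the other GLIP arrays at 806 to 861. In the other members where GLIP 3 was the highest of all arrays, it did not pass this limit.

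The other 4 were low arrays. Csf1r (161832_r_at) on SOY 1 had 18.5 units, against 103 to 109 on the other SOY arrays, while its leading probe set was not low on that array (415 units). Clec4f on SOY 4 had 270.5 units, against 464 to 504. C1qb (96020_at) on MET 2 had 374.3 units, against 519 to 545. C1qb (96020_at) on CON 2 had 185.3 units, against 336 to 357, and CON 2 was also the lowest CON array in Lyz2, at 142 units, Csf1r, at 236, Clec4f, at 301, and Cd5l, at 299.6.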

How the results depend on the processing

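In LTCR against CON, 2 member probe sets were called, and 1 without the 5 arrays with muscle RNA (a choice made after seeing the data). In a fit to these 2 groups alone 4 were called, where Lyz2 (limma adjusted p = 0.0371) and C1qb (96020_at) (0.0424) were added. Of all 7357 tested probe sets, 1419 were called in the main fit, 1111 without the muscle arrays and 1128 in the fit to 2 groups. With each array left out in turn the member count was 2 to 3. The member count of the F test across groups was 5, where 1988 of 7357 tested probe sets passed. It was 3 with 1 probe set per gene, where 1554 of 5545 passed. It was 2 without the 5 muscle arrays, 2 without those and GLIP 3, and 2 to 6 with each array left out in turn. The cause was not tested. The counts of 0 in the other 9 comparisons stayed 0 in every alternative run. The correlation count was 29, and 24 without GLIP 3. With the replicate number as a block the counts were 2 in LTCR against CON and 4 in the F test. The median r was -0.01 between arrays of the same number and -0.001 between arrays of different numbers. Of 32 arrays, 8 were closest to an array of their own number. No pairing of mice by number was seen in these values, which cannot settle whether there was one.

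Of 14 log2 changes with an unadjusted p at or below 0.05, none changed sign in 314 alternatives. Of the 96 others, 43 changed sign in at least 1. The 14 were picked by their p and rerun on mostly the same arrays, so their stable sign is no separate test. Leaving out an array assumes that the rest of its group varies like the other groups.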
